A study of Gossypium hirsutum with 6 samples.

Results

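Actin and annexin transcripts were compared between drought-stressed and well-watered leaves of upland cotton (Gossypium hirsutum). The members were every probe set that the platform's gene table pairs with exactly 1 gene, where that gene was the actin gene ACT7 (LOC107959435), ACT11 (LOC107913713) or ACT4 (LOC107890338), or the annexin gene AnnGh1 (LOC107905123) or Anx1 (LOC107913673). These 5 genes, of 520 that the table names in this way, had 1 such probe set each, among 24132 probe sets on the array. Beside them stand 6 actin control probe sets of the array, 3 designed on upland cotton and 3 on its diploid relative Gossypium raimondii. The 3 drought samples came from plots in which watering was stopped at peak flowering, and leaves were taken 18 to 19 days later, at a soil moisture of 19.5%, which was 50% of that in the control plots. The 3 control samples came from watered plots of the same field. Both arms were the cultivar Bikaneri Nerma, with 6 plots each, and a rain-out shelter covered the drought plots only during rain. The arrays are labelled as biological replicates but are not tied to plots or plants. P-values cover only the spread seen among the 3 arrays of an arm, which limma moderates over all probe sets.

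Actin monomers polymerise into the filaments along which plant cells move organelles and vesicles, and plant genomes carry a family of actin genes with very similar coding sequences. Annexins bind membrane phospholipids in a calcium-dependent manner, and several plant annexins also bind actin filaments. In cotton both families are best known from the elongating seed fibre. Actin transcripts are also widely used as a reference in quantitative PCR.

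Each value is a log2 value from the deposited table, centred so that each probe set has a median of 0 over the 6 arrays. It therefore shows differences between arrays and no level, and values of different genes cannot be ranked as amounts of transcript. The centring sets the 2 innermost of the 6 arrays at equal distances on either side of 0. Array medians over the 24035 probe sets in the fit ran from 0.029 to 0.082 in drought and from -0.047 to -0.037 in control arrays. The median drought minus control difference over all of them was 0.12, with 25th and 75th percentiles of -0.14 and 0.39. Of these probe sets 13384 passed an adjusted p of 0.05 in limma, which is 55.7%, with 35.3% higher and 20.4% lower in drought. The split was 8489 higher and 4895 lower as deposited, 6761 and 5978 with arrays at equal medians, 6409 and 6171 after quantile normalization, and 3992 and 7258 with centring on 27 hybridisation spike-in probe sets. These spike-ins, added to every sample in fixed amounts, had array medians 0.247 higher in drought, which is the amount by which that centring lowers every difference. Within drought their array medians ran from 0.012 to 0.245, so the centring also adds a shift per array that all probe sets share. Moderation over all probe sets does not treat that error as shared, so p-values under spike-in centring cannot be compared with the others. Every drought array lay below every control array for 22.7% of probe sets and above for 40.1%.

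Transcripts of both annexin genes and of 2 of the 3 actin genes fell in drought leaves. The fold of drought over control was 0.402 for AnnGh1, 0.600 for Anx1, 0.666 for ACT7 and 0.807 for ACT11. For ACT4 it was 0.854, and the difference did not pass the threshold. Thus 4 of the 5 members were called lower and none higher, against 20.4% lower and 35.3% higher among all probe sets in the fit. Among the 697 probe sets paired with exactly 1 gene the shares were 35.7% lower and 32.0% higher. The median difference of the members was -0.59, against 0.12 over all probe sets. Drought and control arrays did not overlap for any of the 5, and in each the drought arrays were the lower ones. The same held for 22.7% of all probe sets in the fit.

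**Figure D1:**
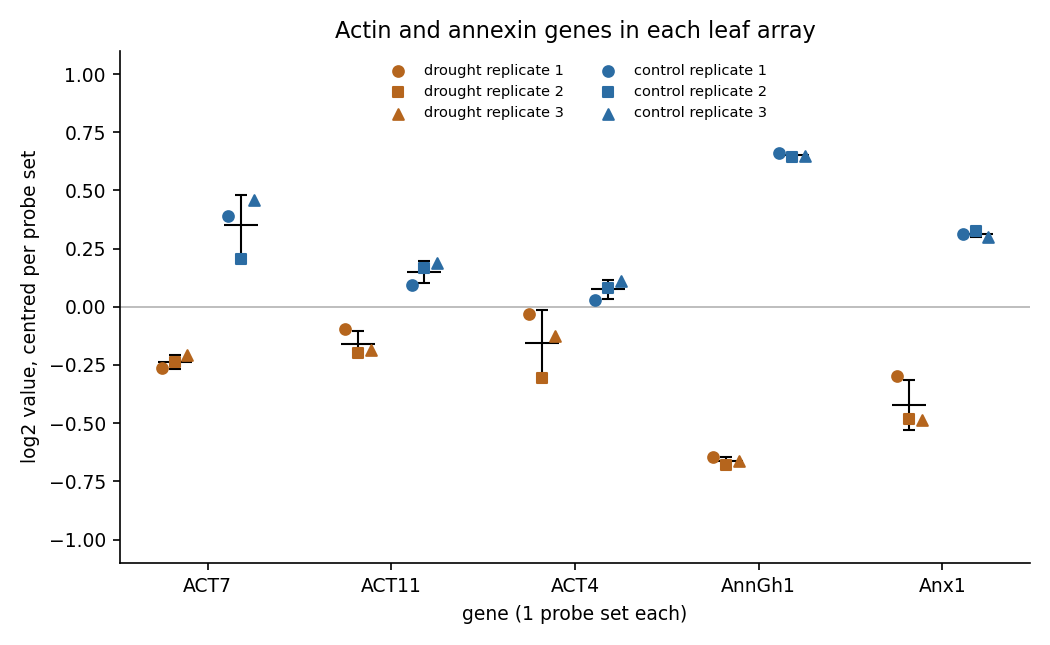
Centred log2 values (vertical axis) of the 3 actin and 2 annexin genes (horizontal axis) in 3 drought and 3 control arrays; marker shapes give the replicate number, and the horizontal and vertical bars the mean and SD of each group. All drought arrays lie below all control arrays for each gene, with the widest gap for AnnGh1 and the narrowest for ACT4.

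AnnGh1, an annexin known from cotton fibre, had the largest difference of the 5. Its centred log2 values were -0.645, -0.680 and -0.664 in drought replicates 1, 2 and 3, and 0.660, 0.645 and 0.649 in control replicates 1, 2 and 3. The arrays of each group lay almost on top of each other, and 1.29 log2 units separated the groups. The means were -0.663 ± 0.017 in drought and 0.651 ± 0.0075 in control leaves (SD, n = 3 each). The difference was -1.31 (SE 0.06, 95% interval -1.46 to -1.17, limma adjusted p = 3.67e-07). Of all probe sets in the fit 6.99% had a lower difference. The pooled SD within groups was 0.013 for AnnGh1, and only 0.0999% of probe sets had a smaller one; the median over all was 0.11.

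Anx1, the other annexin gene, also fell, by less. Its centred log2 values were -0.298, -0.484 and -0.487 in drought replicates 1, 2 and 3. In control replicates 1, 2 and 3 they were 0.313, 0.327 and 0.298. Drought replicate 1 lay nearer to the controls than the other two drought arrays, while the control arrays lay close together. The means were -0.42 ± 0.11 in drought and 0.313 ± 0.014 in control leaves (SD, n = 3 each). The difference was -0.74 (SE 0.08, 95% interval -0.91 to -0.56, limma adjusted p = 5.40e-05), and 10.7% of probe sets had a lower one.

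ACT7 had the largest decrease of the 3 actin genes. The gene table lists ACT8 and ACT9 as further older names of the same locus. Its centred log2 values were -0.265, -0.237 and -0.206 in drought replicates 1, 2 and 3. In control replicates 1, 2 and 3 they were 0.389, 0.206 and 0.458, so the control arrays were the more scattered ones. The means were -0.236 ± 0.029 in drought and 0.35 ± 0.13 in control leaves (SD, n = 3 each). The difference was -0.59 (SE 0.08, 95% interval -0.78 to -0.40, limma adjusted p = 0.00036), and 12.5% of probe sets had a lower one.

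ACT11 fell by a smaller amount. Its centred log2 values were -0.095, -0.199 and -0.187 in drought replicates 1, 2 and 3, and 0.095, 0.165 and 0.188 in control replicates 1, 2 and 3. Replicate 1 of each group lay nearest to the other group. The means were -0.160 ± 0.057 in drought and 0.149 ± 0.048 in control leaves (SD, n = 3 each). The difference was -0.31 (SE 0.07, 95% interval -0.47 to -0.15, limma adjusted p = 0.00527), and 18.2% of probe sets had a lower one.

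ACT4 had the smallest difference. Its centred log2 values were -0.031, -0.304 and -0.128 in drought replicates 1, 2 and 3, and 0.031, 0.082 and 0.110 in control replicates 1, 2 and 3. The groups did not overlap, but only 0.061 log2 units separated drought replicate 1 from control replicate 1, and the drought arrays were more spread out than that. The means were -0.15 ± 0.14 in drought and 0.074 ± 0.041 in control leaves (SD, n = 3 each). The difference was -0.23 (SE 0.09, 95% interval -0.43 to -0.03), with an unadjusted p of 0.0283 and an adjusted p of 0.0507 in limma. Without drought replicate 1 it was -0.29 (adjusted p = 0.0193), and without drought replicate 2 it was -0.15 (adjusted p = 0.147). It also passed as lower under each of 4 other scalings between arrays. Values ran from -0.48 (limma adjusted p = 0.00247, spike-in centring) to -0.28 (limma adjusted p = 0.0278, reporter centring). The SE was 0.135 under spike-in centring against 0.086 as deposited, so the smaller p there does not mean a more precise reading.

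Drought replicate 1 was the highest drought array for 4 of the 5 members, ACT7 being the exception. It was also the highest drought array for 54.5% of all probe sets in the fit. Probe sets of the 5 genes all have IDs that Affymetrix gives to shared probes: ACT7, AnnGh1 and Anx1 end in _s_at, ACT4 in _x_at and ACT11 in _a_at. A probe set ending in _s_at or _x_at can also take signal from close relatives of the named gene. All actin control probe sets have these endings too, as do those of ACT1 and of several other genes named below, so the same limit holds for them. ACT4 and ACT11 further lie in 1 sequence cluster of the array, and how far their readings are independent was not tested.

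**Figure D2:**
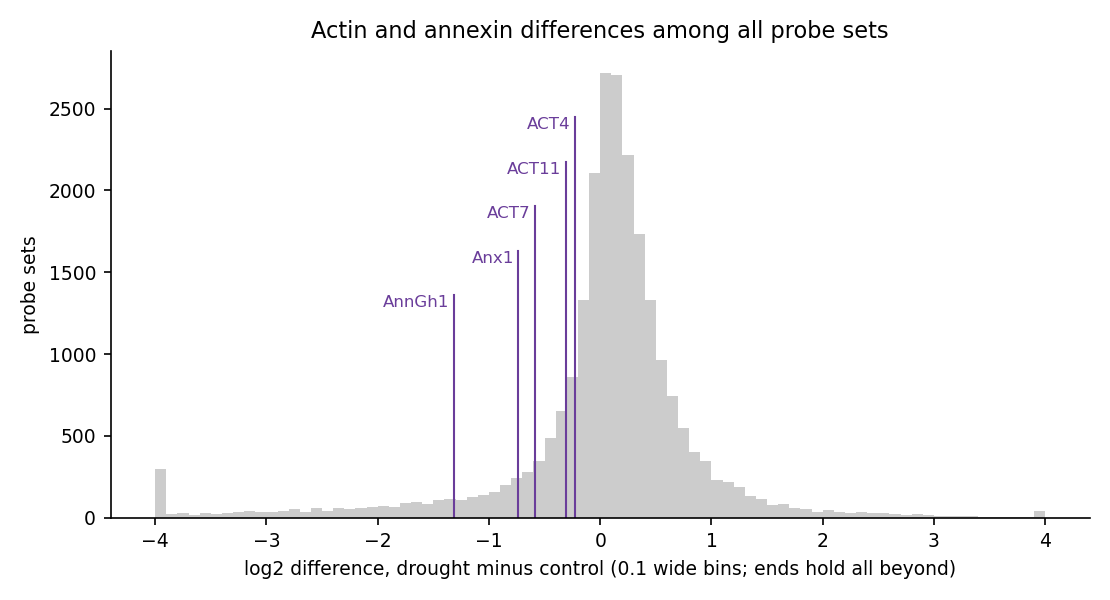
Number of probe sets (vertical axis) by log2 difference of drought minus control (horizontal axis) for all 24035 probe sets in the fit, with a purple line at each of the 5 genes. All 5 lines lie left of the peak of the distribution, from -1.31 for AnnGh1 to -0.23 for ACT4.

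Whether the genes differed from one another in their response was tested by taking the difference of 2 members within each array and comparing it between groups, for all 10 pairs. With 3 arrays against 3 the exact two-sided permutation test cannot give a p below 0.1, and after adjustment over the 10 pairs the lowest was 0.125, so no pair could pass. The groups did not overlap for 8 of the 10 pairs. They also did not overlap for 40 of the 45 pairs that include an actin control probe set. The share over all pairs of probe sets was not computed, so this count alone does not set the members apart. AnnGh1 minus Anx1 was -0.240 ± 0.093 in drought and 0.338 ± 0.018 in control leaves (SD, n = 3 each), so that AnnGh1 fell by 0.58 more (SE 0.05, exact permutation p = 0.1). ACT7 minus ACT4 was -0.08 ± 0.15 in drought and 0.28 ± 0.13 in control leaves, a difference of -0.36 (SE 0.12, exact permutation p = 0.1). The 2 pairs with overlap were ACT11 and ACT4, whose drought minus control difference of the within-array values was -0.08 (SE 0.06, exact permutation p = 0.4), and ACT7 and Anx1, with 0.15 (SE 0.11, exact permutation p = 0.3).

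Set against actin within the same array, the size of the annexin difference varied with the actin gene taken, though no pair could pass the exact test. The drought minus control difference of ACT7 minus AnnGh1 was 0.73 (SE 0.08), that of ACT11 minus AnnGh1 was 1.00 (SE 0.04) and that of ACT4 minus AnnGh1 was 1.09 (SE 0.08), without overlap between the groups in any of them. For Anx1 it was 0.15 (SE 0.11) against ACT7, with overlap. Against ACT11 it was 0.43 (SE 0.04) and against ACT4 0.51 (SE 0.06), without overlap.

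**Figure D3:**
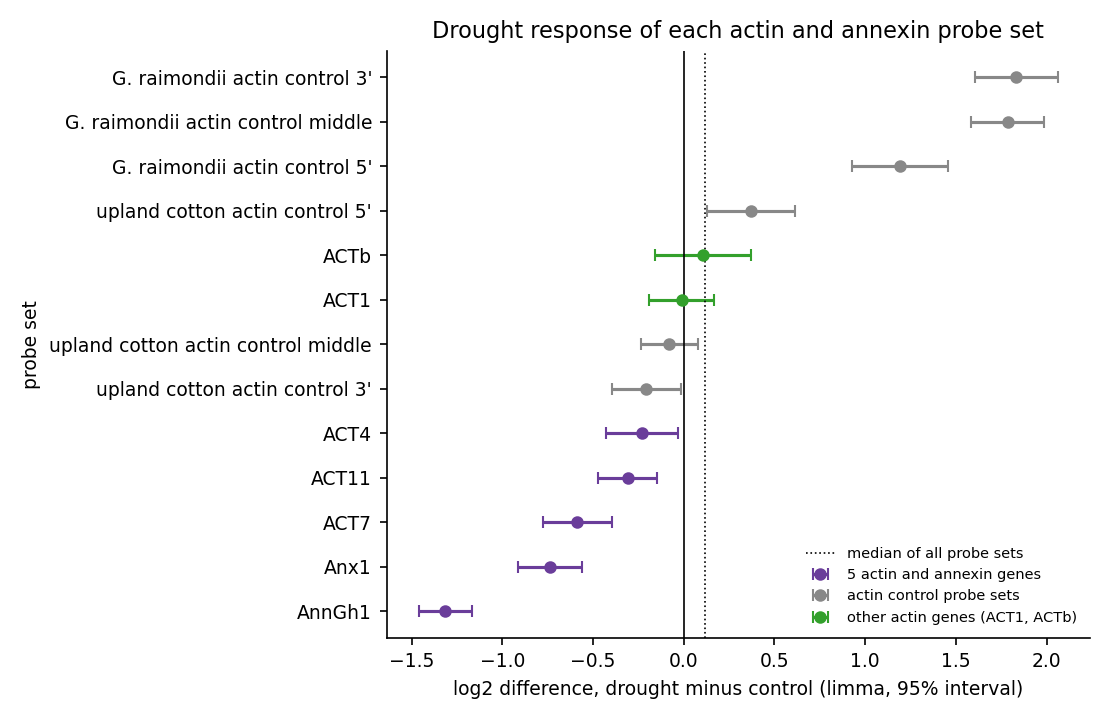
Log2 difference of drought minus control (horizontal axis, points) with its 95% interval from limma (bars) for each actin and annexin probe set (vertical axis); the dotted line is the median of all probe sets. Intervals of the 5 genes lie below 0, those of ACT1 and ACTb span 0, and those of the G. raimondii actin controls lie above 0.9.

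The actin control probe sets went in more than 1 direction. These control probe sets sit at the 3' end, the middle and the 5' end of an actin transcript and serve to judge the length of the labelled RNA. All 3 designed on G. raimondii rose in drought. The 3' one rose by 3.56-fold, the middle one by 3.45-fold and the 5' one by 2.29-fold. Of the 3 designed on upland cotton, the 5' one rose by 1.29-fold and the others did not pass. As deposited, 4 of the 6 were thus called higher and none lower, where 35.3% and 20.4% of all probe sets were. The groups did not overlap for any of the 6, with drought above in 4 and below in 2 (40.1% and 22.7% of all probe sets).

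The G. raimondii 3' probe set had centred log2 values of 0.926, 0.766 and 0.921 in drought replicates 1, 2 and 3, and of -1.054, -0.766 and -1.064 in control replicates 1, 2 and 3. Its difference was 1.83 (SE 0.10, 95% interval 1.60 to 2.06, limma adjusted p = 7.74e-07), and 98.1% of all probe sets had a lower one. The middle probe set had 1.068, 0.848 and 0.819 in the drought replicates and -0.936, -0.819 and -0.866 in the control replicates. Its difference was 1.79 (SE 0.09, adjusted p = 3.78e-07 in limma). The 5' probe set had 0.441, 0.835 and 0.793 in the drought replicates and -0.442, -0.625 and -0.441 in the control replicates, with a difference of 1.19 (SE 0.12, limma adjusted p = 3.33e-05). On all 3 of them the gap between the groups was at least 0.88 log2 units. No gene of the table is paired with these control probe sets, so which actin gene of the leaf they report is not known here.

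The upland cotton 3' probe set had centred log2 values of -0.031, -0.250 and -0.102 in drought replicates 1, 2 and 3, and of 0.031, 0.044 and 0.159 in control replicates 1, 2 and 3. Its difference was -0.21 (SE 0.08, limma adjusted p = 0.0645). It passed as lower under all 4 other scalings (-0.45 to -0.26) and without drought replicate 1 (-0.25, adjusted p = 0.0342). This profile was close to that of ACT4: the root mean square difference between the 2 probe sets over the 6 arrays was 0.035, the smallest among the 55 pairs of member and control probe sets. The middle probe set had -0.045, -0.0067 and -0.015 in the drought replicates and 0.0067, 0.047 and 0.118 in the control replicates. Its difference was -0.08 (SE 0.07, limma adjusted p = 0.352). It passed as lower with arrays at equal medians (-0.18), after quantile normalization (-0.20) and with spike-in centring (-0.33). The 5' probe set had 0.388, 0.060 and 0.113 in the drought replicates and -0.205, -0.282 and -0.060 in the control replicates. Its difference was 0.37 (SE 0.11, limma adjusted p = 0.0163), against 0.12 under spike-in centring (adjusted p = 0.481). Without control replicate 2 it was 0.32 (adjusted p = 0.0585).

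**Figure D4:**
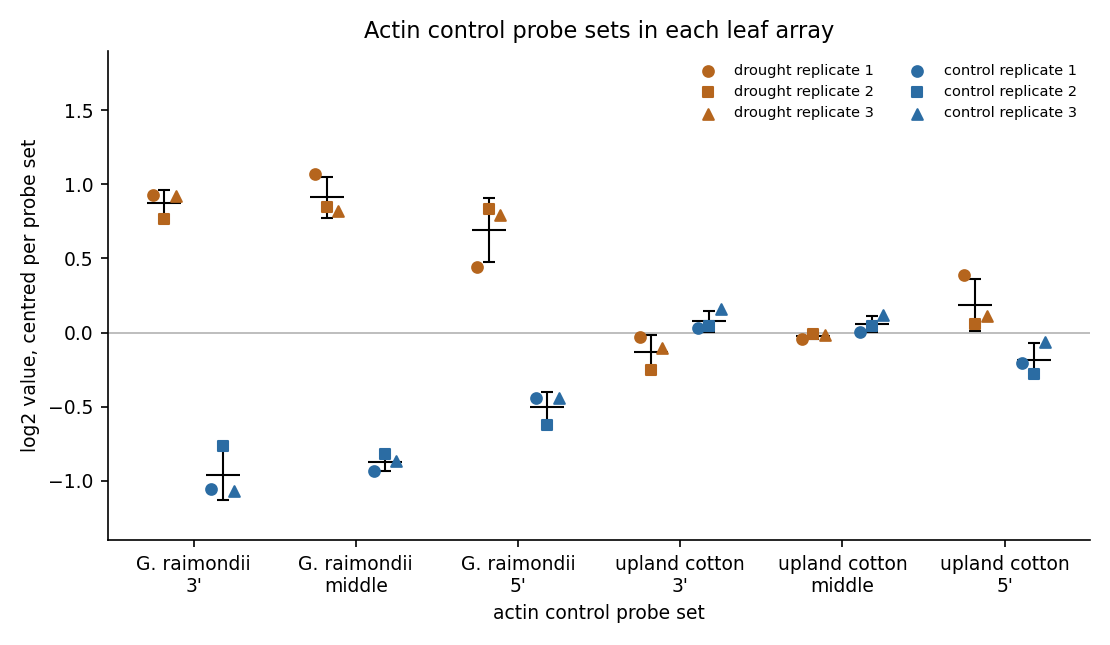
Centred log2 values (vertical axis) of the 6 actin control probe sets (horizontal axis) in 3 drought and 3 control arrays; marker shapes give the replicate number, and the horizontal and vertical bars the mean and SD of each group. Drought arrays lie far above control arrays on the G. raimondii probe sets, and near them on the 3' and middle upland cotton ones.

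The 3' minus 5' value within an array is a usual sign of RNA length. For upland cotton actin it was -0.419, -0.310 and -0.215 in drought replicates 1, 2 and 3, and 0.236, 0.326 and 0.218 in control replicates 1, 2 and 3. The difference was -0.57 (SE 0.07, exact permutation p = 0.1, the smallest this design allows). For G. raimondii actin it was 0.486, -0.069 and 0.128 in the drought replicates and -0.611, -0.141 and -0.623 in the control replicates. That difference ran the other way, at 0.64 (SE 0.23, exact permutation p = 0.1). The drought arrays were thus the lower ones for one actin design and the higher ones for the other, without overlap in either. The array holds such control probe sets for ubiquitin and sucrose synthase as well. For upland cotton the 3' minus 5' difference was -0.24 (SE 0.05) in ubiquitin and -1.83 (SE 0.18) in sucrose synthase, lower in drought without overlap (exact permutation p = 0.1 each). For G. raimondii it was 0.06 (SE 0.20, exact permutation p = 0.8) and 0.03 (SE 0.28, exact permutation p = 1), with overlap in both. The 3 upland cotton designs were thus all lower in drought, while among the G. raimondii designs the groups were apart only for actin, where drought was higher. The member probe sets have no such 3' and 5' partners, and the part of RNA length in their differences was not tested.

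Averaged over its 3 probe sets, G. raimondii minus upland cotton actin was 0.812 ± 0.092 in drought and -0.763 ± 0.095 in control leaves (SD, n = 3 each), a difference of 1.58 (SE 0.08, exact permutation p = 0.1). Between the actin genes and the G. raimondii probe sets the difference of within-array values ran from -2.42 for ACT7 minus the 3' probe set to -1.42 for ACT4 minus the 5' probe set. The actin probe sets described here thus spanned from -0.59 for ACT7 to 1.83 for the G. raimondii 3' probe set.

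The table names a further pair of actin genes and no other annexin, and neither gene passed. ACT1 (LOC107911661, also ACT2 and ACT5), an actin gene known from cotton fibre, had 0.0068, -0.064 and 0.039 in drought replicates 1, 2 and 3, and -0.0068, -0.091 and 0.112 in control replicates 1, 2 and 3. Its arrays overlapped between the groups, and the difference was -0.01 (SE 0.08, 95% interval -0.19 to 0.17, limma adjusted p = 0.919). ACTb (LOC107911663, also ACT6, ACT10, ACT12 and ACT14) had 0.086, -0.086 and 0.108 in the drought replicates and -0.179, -0.212 and 0.176 in the control replicates. Its groups overlapped as well, with a difference of 0.11 (SE 0.12, 95% interval -0.16 to 0.37, limma adjusted p = 0.461), which was -0.0049 after quantile normalization and -0.14 with spike-in centring. The 3 actin members and these 2 genes are all the actin genes named here, so 2 of the 5 named actin genes fell and 3 did not pass, or 3 and 2 under the scalings that call ACT4 lower. Of all 24035 probe sets in the fit, 4895 (20.4%) were called lower as deposited. Under those scalings 5306 to 7258 were.

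Among 4 genes for regulators of actin, 2 fell, 1 rose and CAP missed the threshold; 20.4% of all probe sets were called lower and 35.3% higher. The median difference of the 4 was -0.52, against 0.12 over all probe sets. Rac9 and Rac13 encode small GTPases of the Rac/Rop family, which organises the actin cytoskeleton in plants. Rac9 (LOC107960222) had centred log2 values of -0.981, -0.841 and -0.692 in drought replicates 1, 2 and 3, and of 0.775, 0.922 and 0.692 in control replicates 1, 2 and 3. It fell by 1.63 on the log2 scale (SE 0.10, limma adjusted p = 1.41e-06). Rac13 (LOC107924928) is read from a probe set of antisense design, so its strand is not shown. It had -0.409, -0.452 and -0.472 in the drought replicates and 0.409, 0.658 and 0.563 in the control replicates, and fell by 0.99 (SE 0.08, limma adjusted p = 1.22e-05). A further gene of this GTPase family, RacA (LOC107939787, also Rac2 and Rac6), rose by 0.77 (SE 0.07, limma adjusted p = 2.21e-05). It had 0.457, 0.346 and 0.345 in the drought replicates and -0.400, -0.345 and -0.410 in the control replicates, so that members of 1 GTPase family moved in opposite directions. CAP (LOC107894227), the cyclase-associated protein that binds actin monomers, gave -0.05 (SE 0.10, limma adjusted p = 0.687).

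Of 6 microtubule genes taken by the same kind of name pattern, 5 fell and 1 rose, against 20.4% lower and 35.3% higher over all probe sets, with a median of -1.26. The largest decreases on the probe sets counted were those of the alpha-tubulin genes TubA4 (-2.29), TubA2 (-2.20) and TUA6 (-2.01). The other TubA4 probe sets, both of antisense design, fell by 1.43 and 1.11. The kinesin gene KCH1 rose by 0.43; it did not pass after quantile normalization (0.37), with spike-in centring (0.18) or without drought replicate 1 (0.36), control replicate 1 (0.34) or control replicate 3 (0.39). kch2, BTub1, BTub3 and KIS13A1 were missed by the pattern and seen only afterwards; with them 7 of 10 fell, 1 rose and 2 did not pass, and the median was -0.43. Among 3 calcium sensor genes, the probe sets counted gave 0.10 for CBL1, -0.08 for CBL2 and -0.02 for CBL3. None of these passed in limma, and 0 had an unadjusted p below 0.05. The other CBL1 probe set gave 0.25 and did not pass either (limma adjusted p = 0.0641). Its limma interval (0.02 to 0.48) lay above 0, and all its drought arrays lay above all its control arrays. CBL2 passed as lower after quantile normalization (-0.20) and with spike-in centring (-0.32).

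For each member the 3 named genes with the most similar profile were those with the smallest root mean square difference of centred log2 values over the 6 arrays. This measure follows the size of the group difference above all. For AnnGh1 they were a xyloglucan endotransglucosylase/hydrolase gene, XTH (LOC107886823; 0.040), the sterol methyltransferase gene SMT1 (0.064) and PK1 (0.077). Those genes differed by -1.25, -1.23 and -1.18 between drought and control. For Anx1 they were CEL (0.026), a peroxidase gene (LOC107905931; 0.038) and the UDP-glucose dehydrogenase gene UGD2 (0.042). For ACT7 they were the ribosomal protein gene RPL37A (0.041), pod10 (0.078) and KCS38 (0.094). For ACT11 they were CANT1 (0.018), MFS (0.035) and BC1 (0.044), and for ACT4 they were LTP3 (0.053), BC1 (0.053) and ARF1 (0.056). The LTP3 probe set near ACT4 differed by -0.20 between drought and control and did not pass (limma adjusted p = 0.067).

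Markers of cotton fibre, flower and leaf differed between the groups, while those of seed storage did not pass as deposited. A list of 5 fibre markers held 4 that fell and 1 that rose, Fb2 (0.47), with a median of -3.07. The largest decreases were those of H6L (-4.75), Ghfe1 (-3.88) and E6 (-3.07). Over all probe sets 20.4% were called lower and 35.3% higher. Array means of the centred log2 values of these 5 markers ran from -1.30 to -1.08 in drought and from 1.14 to 1.17 in control leaves. Fb2 did not pass with spike-in centring (0.22). LTP3 was counted as lower by a probe set at -0.65. Its other probe set, the one near ACT4, did not pass (-0.20, limma adjusted p = 0.067). Both flower markers, MADS-1 (-4.21) and SEPALLATA3 (-1.56), fell, with array means from -1.65 to -1.27 in drought and from 1.27 to 1.67 in control leaves. None of 4 seed storage markers passed in limma (1 of them, Mat5-D, had an unadjusted p below 0.05). Of these, vicB_At (-0.18) passed as lower with arrays at equal medians (-0.28), after quantile normalization (-0.30) and with spike-in centring (-0.43). Mat5-D (0.21) passed as higher without drought replicate 2 (0.26), and LEGB (0.16) without drought replicate 1 (0.33). Their array means ran from 0.036 to 0.079 in drought and from -0.078 to 0.034 in control leaves. RCA1, the Rubisco activase of leaf chloroplasts and the one leaf marker named in the table, rose by 0.60 (SE 0.07, limma adjusted p = 8.32e-05). Centred values hold no level, so whether these markers were present at all in the leaves could not be checked, and which of them were near background is not known. Fewer cells of a type and less RNA per cell cannot be told apart in such samples, and the part of fibre-type or floral transcripts in the actin and annexin differences was not tested.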

How the data were processed

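Per the submitters' processing notes, the authors made the values with RMA (version not given in these sources). The deposited log2 values had a median of 0 over the 6 arrays for every probe set (largest absolute median 5e-07), so they were centred before deposit in a way the sources do not describe. The log2 scale is read from RMA and the range of the values, and a higher value is taken as more signal, which the table does not state. Drought was compared with control in limma 3.58.1 (R 4.3.3; lmFit, then eBayes), without a block, on 24035 probe sets: all that are no Affymetrix control, plus the 6 actin controls. P-values are two-sided, with Benjamini-Hochberg adjustment over all of them and a threshold of 0.05. The fit was tested on simulated data. Within-array differences were compared by exact permutation with scipy 1.17.1. The SE of a limma difference uses the variance that eBayes moderates over all probe sets. That of a within-array difference uses the pooled SD of its own arrays alone. Depth has no meaning for arrays; their number, 3 per group, limits the precision. A planned test between probe sets of 1 gene was not needed, since each gene had 1.

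Gene names are older names in the RefSeq gene table of Gossypium_hirsutum_v2.1, used for names only; all 5 members matched, and 246 of 520 genes had such a name. All member and actin control probe sets are described, whatever their test gave. Lists of actin regulators, microtubule, calcium and tissue marker genes were name patterns, counted by 1 probe set per gene (sense design first, then ID ending, then ID order), and named where among the 3 largest. Like Rac13, the genes kch2, vicB_At, LEGB, pod10 and ARF1 were read from probe sets of antisense design, so their strand is not shown. Members and lists were chosen with earlier results of these data known. Alternatives were 4 scalings between arrays, a replicate block, robust eBayes, other sets of probe sets and leaving out each array. All of these, quantile normalization included, were run on the centred values.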

Additional observations from a re-analysis of the deposited data

How the results depend on the processing

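AnnGh1, Anx1, ACT7, ACT11 and the 3 G. raimondii actin control probe sets kept their direction and their side of the threshold under all alternatives run for them. AnnGh1 ranged from -1.56 to -1.18, Anx1 from -0.98 to -0.70, ACT7 from -0.83 to -0.53 and ACT11 from -0.56 to -0.29. The G. raimondii 3' control ranged from 1.59 to 2.48, the middle one from 1.54 to 2.44 and the 5' one from 0.95 to 1.45. Each of these controls was highest after quantile normalization of the centred values. ACT4 passed as lower with arrays centred on their median (-0.32), after quantile normalization (-0.34) and with centring on hybridisation spike-ins (-0.48) or reporter probe sets (-0.28); leaving out 1 array gave -0.29 to -0.15. In the same order the upland cotton 3' actin control passed with -0.30, -0.32, -0.45 and -0.26, and gave -0.25 to -0.14 with 1 array left out. The middle one passed with -0.18, -0.20 and -0.33 under the first 3. The 5' one no longer passed with spike-in centring (0.12) and ranged from 0.27 to 0.43 with 1 array left out. Spike-in centring called 3992 probe sets higher and 7258 lower; array medians of the 27 spike-ins were 0.247 higher in drought. Over the actin regulator, other actin, microtubule and calcium lists, tissue markers left out, 2 genes were called higher, and 1 after quantile normalization or spike-in centring and 1 to 2 with 1 array left out. The cause of these shifts was not tested. The replicate block called 13248 probe sets and changed no call of a member; same-numbered arrays correlated at 0.033, 0.045 and 0.074 in their deviations from the group means, each best with its own number, too weakly to take them as pairs. A filter on low values was not run, since centred values hold no level. Widening the microtubule pattern, chosen after the data were seen, gave 9 lower and 2 higher over the same 4 lists.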
